A study of Mus musculus with 13 samples.

Results

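The peaks described here are open in the nephron progenitors of the newborn mouse kidney. They are much less open in the podocytes, proximal tubule cells and loop of Henle cells of the same kidneys. They were selected on measured values of the P0 samples: a level of at least 15 on a counts-per-million scale (CPM) in nephron progenitors (NP), and at most 25% of the NP value in each of podocytes (Podo), loop of Henle (LOH) and proximal tubule cells (PT). Of 300755 peaks, 16237 reached 15 CPM in NP, and 780 of these met the full rule, which is 4.80% of the NP peaks and 0.259% of all peaks. The other 15457 NP peaks serve as a comparison set below. An open call is a pair of a nucleus and a peak in which that nucleus has a fragment, and CPM scales the open calls of a peak by all open calls of that cluster, as counts-per-million.

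The nuclei come from whole kidneys of mice and were read by snATAC-seq, which tags open chromatin with Tn5 transposase and reads it nucleus by nucleus. The series holds 2 samples labelled P0, 1 labelled P21 and 2 labelled P56, and the latter 3 together are called adult here. The labels name no genotype, strain or treatment for any group. The protocol in the labels gives the ages as 1 day, 3 weeks and 8 weeks, with kidneys of the older mice perfused first. Nothing in the labels says how many animals made up a sample, so the p-values below measure only the spread between these samples.

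The P0 samples hold 5993 and 5436 nuclei with 39508633 and 38953624 open calls, and the adult samples 3361 to 7129 nuclei with 16980853 to 43794155 open calls. NP nuclei numbered 1032 and 1005 at P0, and 52, 90 and 53 in the P21 sample and the 2 P56 samples. Cluster names are those of the deposited annotation, in which PT and PT2 are separate proximal tubule clusters and the rule uses PT. Of 27834 barcode sequences, 477 occur in at least 2 libraries. No search for barcodes with 2 nuclei was made.

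Nephron progenitors are the mesenchymal cells that cap the tips of the ureteric bud and give rise to all epithelial segments of the nephron, from the podocyte to the distal tubule. Six2 keeps them in a self-renewing state, Gdnf from the mesenchyme draws the ureteric bud outwards, and Wnt signals from the bud start their conversion into epithelium. In the mouse this pool is used up soon after birth. Open sites far from gene starts often act as enhancers, which are bound by the transcription factors of a cell type.

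The P0 cluster named NP carried the marks of this cell type. The peak over the start of Six2 was open in 39.1% of P0 NP nuclei, with LOH next at 13.9%. The start peaks of Cited1, Uncx, Eya1 and Osr1, which are genes of the progenitor state, were also open in a larger share of NP nuclei than of any other cell type, at 17.97%, 14.5%, 16.7% and 12.8%. Crym was the exception, with 6.58% in NP and 6.97% in PT. Meox1 has no peak over its annotated start. In the adult NP cluster the Six2 start was open in 0.513% of nuclei, and Uncx was the only one of the 6 start peaks that was highest in that cluster, at 4.62%. The summed level of the 6 start peaks was 154 and 158 CPM in the P0 NP samples and 17.3, 39.6 and 27.1 CPM in the adult ones, with 1 or 2 of the 6 at 0 in each adult sample. The name of the adult NP cluster therefore has little backing from these markers.

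Sequences of the strongest members near genes of the progenitor lists show what such a site looks like. Each line gives the nearest protein-coding gene and the central 300 bases of the peak in mm10 (GRCm38), plus strand. Capitals mark the words searched for SIX-family (AACNTGA) and posterior HOX (CCATAAA) factors on either strand.
Six2, chr17:85748501-85748800: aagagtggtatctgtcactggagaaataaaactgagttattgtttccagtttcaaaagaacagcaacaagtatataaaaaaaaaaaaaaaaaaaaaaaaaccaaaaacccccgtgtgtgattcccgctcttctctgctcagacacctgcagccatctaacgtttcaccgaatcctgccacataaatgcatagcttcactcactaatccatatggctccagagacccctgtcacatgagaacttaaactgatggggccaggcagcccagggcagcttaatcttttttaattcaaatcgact
Itga8, chr2:12023672-12023971: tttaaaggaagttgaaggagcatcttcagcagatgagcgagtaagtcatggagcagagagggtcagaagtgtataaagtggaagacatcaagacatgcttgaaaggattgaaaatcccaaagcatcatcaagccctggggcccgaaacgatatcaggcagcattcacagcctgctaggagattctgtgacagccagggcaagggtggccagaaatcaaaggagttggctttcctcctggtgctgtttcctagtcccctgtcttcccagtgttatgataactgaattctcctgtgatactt
Hmga2, chr10:120421095-120421394: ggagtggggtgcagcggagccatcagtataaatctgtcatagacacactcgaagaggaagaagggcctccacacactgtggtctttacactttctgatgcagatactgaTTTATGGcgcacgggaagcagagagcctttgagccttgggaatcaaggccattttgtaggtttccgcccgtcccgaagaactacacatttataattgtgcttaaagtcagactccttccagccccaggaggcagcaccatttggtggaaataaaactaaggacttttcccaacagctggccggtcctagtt
Fgf9, chr14:58516682-58516981: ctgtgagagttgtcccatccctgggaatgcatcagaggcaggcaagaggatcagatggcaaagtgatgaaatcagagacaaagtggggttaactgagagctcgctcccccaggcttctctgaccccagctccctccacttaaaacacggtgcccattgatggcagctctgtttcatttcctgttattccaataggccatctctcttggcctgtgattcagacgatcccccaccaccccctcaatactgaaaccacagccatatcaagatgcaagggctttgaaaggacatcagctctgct
The Six2 site is distal, 60.4 kb from the Six2 start, and neither word occurs in its central window, though the HOX word occurs elsewhere in the peak. The Hmga2 site lies in an intron and holds 1 HOX word. The sites of Itga8 and Fgf9 are distal, at 109 and 440 kb, and hold neither word.

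Both words occurred together in the central window of 11 members, or 1.41%, against 0.233% of the other NP peaks and 0.834% of all peaks. Among distal and intronic peaks the shares were 1.55% of members and 0.918% of all. Each word alone was also more frequent in members, at 22.4% and 8.72% against 14.6% and 4.94% of all peaks. A higher share of each word alone also raises the share with both. Whether the words pair more often than these shares give was not tested, so the 1.41% is no evidence of pairing. Intronic and distal examples, chosen after their values were seen, are printed next to show how the words lie in a strong site.
Cdkal1, chr13:29285202-29285501: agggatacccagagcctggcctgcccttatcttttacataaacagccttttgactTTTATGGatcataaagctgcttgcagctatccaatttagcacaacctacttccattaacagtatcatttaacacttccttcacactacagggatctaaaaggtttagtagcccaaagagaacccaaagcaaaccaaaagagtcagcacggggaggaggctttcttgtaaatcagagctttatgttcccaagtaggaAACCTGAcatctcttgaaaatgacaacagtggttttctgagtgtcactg
Npvf, chr6:50819280-50819579: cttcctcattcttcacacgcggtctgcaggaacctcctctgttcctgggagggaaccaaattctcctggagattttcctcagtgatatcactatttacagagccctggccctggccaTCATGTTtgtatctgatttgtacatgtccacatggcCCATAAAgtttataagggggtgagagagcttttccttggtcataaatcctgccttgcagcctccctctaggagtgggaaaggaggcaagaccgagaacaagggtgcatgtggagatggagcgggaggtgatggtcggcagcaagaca
Apob, chr12:8083056-8083355: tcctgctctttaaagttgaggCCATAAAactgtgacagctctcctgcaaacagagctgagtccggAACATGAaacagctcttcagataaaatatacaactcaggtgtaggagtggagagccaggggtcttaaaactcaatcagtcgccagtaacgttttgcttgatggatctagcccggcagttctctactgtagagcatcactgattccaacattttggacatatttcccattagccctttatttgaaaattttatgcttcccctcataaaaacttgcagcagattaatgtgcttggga
Gadd45g, chr13:52030178-52030477: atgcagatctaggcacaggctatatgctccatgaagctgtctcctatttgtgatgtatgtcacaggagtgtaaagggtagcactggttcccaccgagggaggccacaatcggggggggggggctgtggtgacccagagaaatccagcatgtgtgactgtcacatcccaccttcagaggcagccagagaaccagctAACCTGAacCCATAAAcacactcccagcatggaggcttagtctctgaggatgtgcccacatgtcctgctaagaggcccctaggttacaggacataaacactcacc
In the Gadd45g site the SIX-family and HOX words are separated only by the letters ac. These 4 sites had 36.6, 33.4, 30.4 and 29.4 CPM in P0 NP, and at most 5.61, 6.90, 5.76 and 5.39 CPM in any of the 3 differentiated lineages. They differed in stroma2, with 24.7 and 30.2 CPM at the Npvf and Apob sites and 1.73 and 1.57 CPM at the Cdkal1 and Gadd45g sites.

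Members were much more open in progenitors than in the 3 lineages. The median member had 20.3 CPM in P0 NP, with quartiles of 17.3 and 25.9 and a highest value of 64.5, and was open in 13.1% and 15.0% of NP nuclei in the P0 samples. Median values in LOH, Podo and PT were 2.91, 2.56 and 0.812 CPM, against 0.862, 0.640 and 0.542 CPM for the median of all peaks in those clusters. These values chose the members and are given as a description. The highest of the 3 lineages was LOH for 434 members, Podo for 325 and PT for 21. The median ratio of NP to that highest lineage was 5.86, and 100 members lay at or below 10% of NP in all 3.

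The samples of P0 gave similar values. The NP level was above each of the 3 lineages in both samples for all 780 members, which the rule makes likely. The median absolute difference between the samples was 1.99 CPM, and 561 of the 780 members were higher in P0 sample 1. Applied to each P0 sample alone, the rule kept 812 and 793 peaks, of which 657 and 661 are members, and 547 members met it in both. At the threshold, the members nearest inside the minimum, at Abr, Evi2b and Tiam1, each had 15.0 CPM in NP, and the peaks nearest below it, at Ptprc, Med4 and Faim2, each had 14.9. For the ratio, the members nearest inside, at Smarcc2, Dlk1 and Gm12830, had their highest lineage at 4.85, 4.42 and 5.44 CPM against 19.4, 17.7 and 21.8 in NP. The peaks nearest outside, at Prim2, Kcnab2 and Cdh4, had 3.84, 5.71 and 3.88 CPM against 15.4, 22.8 and 15.5. The edge of the set is thus a matter of small differences.

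**Figure D1:**
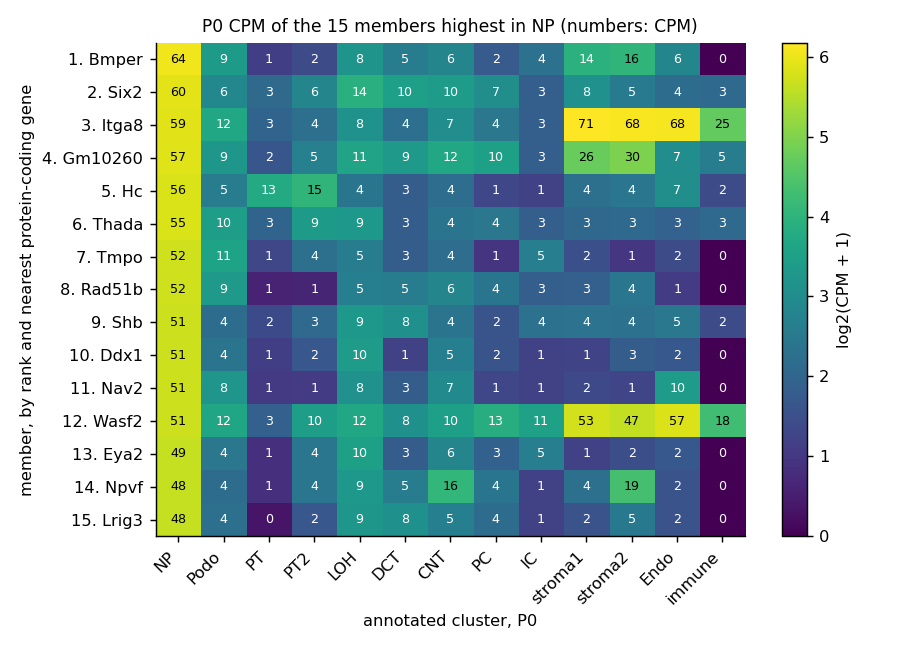
P0 level of the 15 members with the highest NP value (rows, by rank and nearest protein-coding gene) in 13 annotated clusters (columns), with colour as log2(CPM + 1) and the rounded CPM printed in each cell. The NP column is high by selection, and the members near Itga8 and Wasf2 have similar or higher values in stroma1, stroma2 and Endo, which the rule did not use.

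The 15 members highest in NP lie near Bmper, Six2, Itga8, Gm10260, Hc, Thada, Tmpo, Rad51b, Shb, Ddx1, Nav2, Wasf2, Eya2, Npvf and Lrig3. The member highest of all is distal, 181 kb from the start of Bmper, which encodes a secreted modulator of BMP signals. It had 71.0 and 59.0 CPM in NP of the P0 samples, 9.68 and 6.95 in LOH, 10.9 and 8.18 in Podo and 0.742 and 1.79 in PT. The distal member of Six2, the transcription factor of progenitor self-renewal, had 60.7 and 59.2 CPM in NP and was open in 37.7% and 45.1% of NP nuclei. It had 15.1 and 13.5 CPM in LOH, 3.103 and 8.72 in Podo and 3.71 and 2.99 in PT. No adult NP nucleus had it open, while the peak over the Six2 start itself was no member. The rule chose both sites on these P0 values. Over both samples the ratio of NP to the highest lineage was 6.94 at the Bmper site and 4.21 at the Six2 site, the latter near the limit of the rule.

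An intronic member in Eya2, a partner of SIX-family proteins, had 47.8 and 50.1 CPM in NP, 11.3 and 9.53 in LOH and 0.742 and 0.897 in PT. The member in Nav2, a gene of the cytoskeleton, had 52.9 and 49.8 CPM in NP and 7.08 and 8.34 in LOH. The member at Hc, which encodes a complement component, stood apart in having PT as its highest lineage, with 12.1 and 13.2 CPM against 58.7 and 53.5 in NP. Among the other members of this group, NP ranged from 45.5 CPM at Lrig3 in one sample to 62.7 at Itga8 in the other. The 15 members were open in 29.7% to 45.1% of NP nuclei in either sample.

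Members lay near 14 of the 34 genes in the list of nephron progenitor genes, with 20 members in all. Assigned by the nearest start of any gene in place of a protein-coding one, 8 members lay near 7 of them. Of the 1567 peaks nearest to those genes, 1.28% were members, against 0.259% of all peaks, and of the 135 that reached 15 CPM in NP, 14.8% were members, against 4.80% of all NP peaks. The latter share was 16.2% in the list of stromal genes, 15.4% for the loop of Henle, 12.5% for the early nephron and 10% for podocytes, so a share above that of all NP peaks was not particular to progenitor genes. Genes of the list without a member include Cited1, Wt1, Pax2, Bmp7, Crym, Rspo1 and Robo2. These shares were not tested, and 69.2% of the other NP peaks cover a gene start.

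Transcription factors and chromatin genes of the list come first. Eya1, the cofactor of Six2 in progenitors, had its highest member 34.8 kb away, with 26.1 and 23.1 CPM in NP of the P0 samples. The members of Sall1 and Osr1, zinc finger genes needed for the progenitor pool, lay 562 and 324 kb away and had 18.4 and 20.4 CPM and 17.9 and 15.0 CPM. The homeobox genes Meox1, Meox2 and Uncx had members at 21.2 and 23.1, 22.6 and 22.1, and 21.1 and 17.5 CPM. Mycn, which drives growth of progenitors, had 3 members, the highest at 25.7 and 22.6 CPM. Hmga2, a chromatin protein of fetal cells, had an intronic member at 41.8 and 39.6 CPM. In adult NP nuclei these highest members of Eya1, Sall1, Osr1, Meox2, Mycn and Hmga2 had no open call, that of Meox1 had 1 and that of Uncx 3.

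Ligands, receptors and adhesion genes follow. Gdnf, the ligand that attracts the ureteric bud, had 2 members, the higher at 21.4 CPM in both P0 samples. The member of Fgf9, a growth factor that keeps progenitors undifferentiated, had 34.0 and 32.7 CPM in NP and at most 2.12 in any of the 3 lineages of either sample. The FGF receptor genes Fgfr1 and Fgfr2 had members at 20.8 and 17.8 and at 16.5 and 18.6 CPM. Itga8, an integrin subunit through which the mesenchyme supports Gdnf expression, had a distal member at 62.7 and 55.6 CPM. Of the 12 Hox genes in the list named posterior, which pattern the kidney-forming mesoderm, Hoxc8 had the one member, an exonic peak at 22.8 and 21.6 CPM. Hoxc8 is of a central paralog group, and no gene of a more posterior group in the list had a member. This was 1 of the 22 NP peaks of the list, or 4.55%, near the 4.80% of all NP peaks.

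Genes of the first epithelial steps also had members. The list of 16 early nephron genes held 6 members near 5 genes, or 0.677% of its 886 peaks. The highest was distal to Notch2, a receptor of nephron segmentation, with 31.1 and 28.6 CPM in NP. Members of Pax8, a transcription factor of the early nephron, and of Wnt4, the signal that turns progenitors into epithelium, had 22.2 and 21.8 and 15.8 and 18.6 CPM. Those of the Notch ligand gene Jag1 and of Sox9 had 21.2 and 18.2 and 19.97 and 16.7 CPM. The members of Pax8 and Wnt4 lay 62.1 and 64.4 kb from those genes, and the members of Jag1 and Sox9 448 and 326 kb. By the nearest start of any gene, 2 members lay near 1 gene of this list. In the other lists, 6 of 830 peaks near stromal genes were members (3 of them near Meis2 and 1 each near Meis1, Fat4 and Aldh1a2), 3 of 789 near podocyte genes, 2 of 756 near loop of Henle genes and 0 of 516 near proximal tubule genes. The podocyte genes with a member were Foxl1, Plce1 and Lmx1b, at 30.4, 16.2 and 39.1 CPM in NP, and the loop of Henle genes were Esrrg and Irx1, at 15.4 and 16.4 CPM. The proximal tubule genes had only 6 NP peaks, so a count of 0 members there says little.

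Members were scattered over the genome. They were nearest to 670 protein-coding genes, of which 580 had 1 member, 17 had 3 or more, and those 17 genes took 54 members. Grouping neighbours within 50 kb gave 6 loci with at least 3 members, which hold 19 members or 2.44%. The locus on chromosome 9 from 100396564 to 100453064, nearest to Il20rb, had 4 members among 12 peaks, at 15.5 to 21.9 CPM in NP. On the same chromosome, from 86984715 to 86998090, near Ripply2, all 3 peaks were members, at 19.8 to 34.3 CPM. The others named by the rule lie near Mrpl23 and Tnnt3 on chromosome 7 (28.1 to 38.2 CPM), in Smyd3 on chromosome 1 (15.6 to 37.6) and in Thada on chromosome 17 (18.6 to 55.3), with 3 members each.

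Members lay away from gene starts. In GENCODE M21, 39.9% were distal, 42.8% intronic, 10.9% exonic and 6.41% in promoters, taken as the 5 kb before a start outside the other elements. The other NP peaks were 10.1% distal, 13.05% intronic and 74.2% exonic. An annotated start lay within 21 members, or 2.69%, against 69.2% of the other NP peaks and 7.43% of all peaks. The median distance to a protein-coding start was 44.7 kb for members, 0.203 kb for the other NP peaks and 20.6 kb for all peaks, and 222 members lay over 100 kb away. The median member was 770 bp wide with 48.7% GC in its central window, against 1050 bp and 62.0% in the other NP peaks and 414 bp and 46.7% in all peaks. Peaks over gene starts are commonly open in many cell types.

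**Figure D2:**
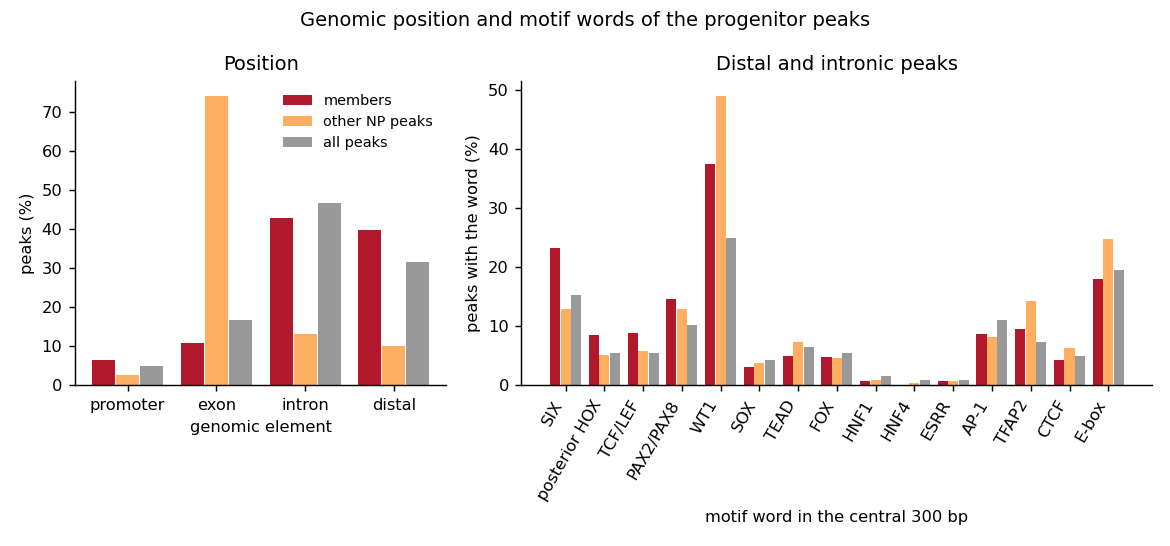
Left, share of peaks (%) in each genomic element for the 780 members, the 15457 other NP peaks and all 300755 peaks. Right, share of distal and intronic peaks (%) with each motif word in the central 300 bp, same colours, where members lie above all distal and intronic peaks for the SIX-family, posterior HOX, TCF/LEF, PAX2/PAX8, WT1 and TFAP2 words.

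The words for SIX-family, posterior HOX, TCF/LEF and PAX factors were more frequent in members than in both comparison sets. To compare like positions, shares are given over the 645 distal and intronic members, the distal and intronic peaks among the other NP peaks, and all 235388 distal and intronic peaks with reference sequence. The word for SIX-family factors, AACNTGA, occurred in the central 300 bp of 23.3% of members, 12.9% of the other NP peaks and 15.3% of all. The posterior HOX word CCATAAA occurred in 8.53%, 5.14% and 5.38%. CTTTGAT, for TCF/LEF factors, which relay Wnt signals, occurred in 8.84%, 5.86% and 5.47%. GTCANGC, for PAX2 and PAX8, occurred in 14.6%, 12.96% and 10.2%. Both strands were searched, no test was made, and a word is a stretch of letters and not a bound site.

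Of the other 11 words, 6 were less frequent in distal and intronic members than in both comparison sets and 5 lay between them. CAGCTG (E-box) occurred in 17.98% of members, 24.8% of the other NP peaks and 19.5% of all, CCACNAGG (CTCF) in 4.19%, 6.26% and 4.94%, ACATTCC (TEAD) in 4.96%, 7.23% and 6.38%, and CCATTGT (SOX) in 3.101%, 3.69% and 4.25%. Words of tubule factors were rare, with GTTAATNAT (HNF1) in 0.775%, 0.866% and 1.60%, and CAAAGTCCA (HNF4), the word of the proximal tubule factor, in none of the 645 members, 0.335% of the other NP peaks and 0.825% of all. Between the sets lay the GC-rich words CTCCCNC (WT1), at 37.5%, 49.1% and 24.9%, and GCCNNNGGC (TFAP2), at 9.46%, 14.2% and 7.38%. TGTTTAC (FOX) occurred in 4.81%, 4.66% and 5.39%, TGANTCA (AP-1) in 8.68%, 8.21% and 11.1%, and TCAAGGTCA (ESRR) in 0.775%, 0.642% and 0.897%. These shares were not tested, and overlaps between words were not removed.

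In the clusters that the rule did not use, most members were also at or below 25% of NP. At P0, 451 members, or 57.8%, were at or below 25% of NP in all 12 other cell types. The count at or below 25% was 755 in PT2, 749 in the principal cells of the collecting duct (PC), 742 in immune cells, 737 in the distal convoluted tubule (DCT), 730 in intercalated cells (IC), 707 in the connecting tubule (CNT), 701 in endothelial cells (Endo), 653 in stroma2 and 649 in stroma1. In the cluster PT_out, which is not among the 12, it was 721. Such a level need not be closed, as the median member had 2.39 CPM in P0 CNT, against 0.598 CPM for the median of all peaks. Among the other NP peaks, 73.4% (immune) to 91.8% (CNT) were above 25% of NP in these clusters. DCT, IC and immune cells have 96 to 156 nuclei at P0, where 1 open call is 1.27 to 1.66 CPM.

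The other 329 members were above 25% of NP in at least 1 of these cell types. In one or both stroma clusters 165 members, or 21.2%, were above it, and 107 members were so in a cell type of the distal tubule or collecting duct but in no stroma cluster. Of those with stroma signal, 93 were above it in both clusters, and 30 reached the NP level or more. In Endo 15 members reached the NP level, and in immune cells 6. The member distal to Itga8 was open at 71.3 CPM in stroma1, 68.4 in stroma2 and 67.5 in Endo against 58.8 in NP, and the distal member of Wasf2, a regulator of actin, at 53.1, 47.4 and 56.7 against 50.8. A second member of Gdnf, 185 kb away, had 56.5 CPM in stroma1 and 21.8 in stroma2 against 19.1 in NP. The member near Ggta1 was highest in immune cells, with 71.5 CPM against 24.0 in NP (named after its values were seen). The set is thus low in the 3 lineages that define it, and not private to progenitors among all cells of the kidney.

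The SIX-family word occurred in the central window of 23.3% of the 451 members low in all 12 cell types and in 20.6% of the 165 with stroma signal, and the HOX word in 8.65% and 10.3%. The 37 members above 25% in Endo but in neither stroma cluster had the WT1 word in 59.5%, against 36.1% of the 451. These are descriptions of sets chosen by level.

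**Figure D3:**
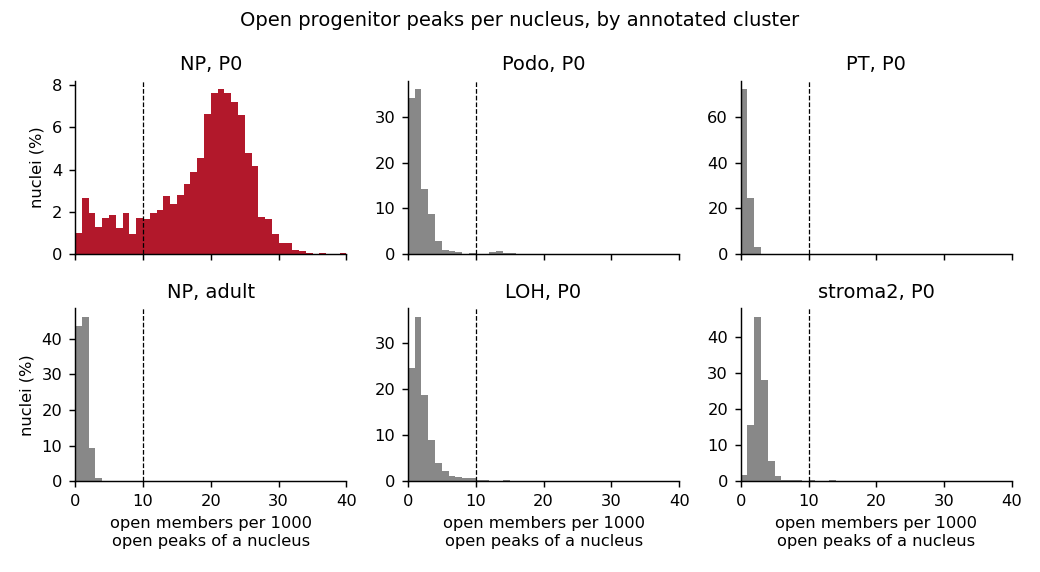
Histograms of the number of open members per 1000 open peaks of a nucleus (x axis) as the percent of nuclei (y axis) in 6 groups, with a dashed line at 10. P0 NP nuclei centre on a median of 20.2 with a tail towards 0, while the other 5 groups lie almost entirely below 10.

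Single nuclei of the P0 NP cluster differed widely. The median NP nucleus had 112 and 129 members open in the P0 samples, which is 20.7 and 19.7 per 1000 open peaks. The lowest 5% of NP nuclei lay at or below 3.76 and 1.97 per 1000, in the range of other clusters, whose medians ran from 0.665 in PT to 2.94 in stroma1. At 10 per 1000 or more were 85.9% and 81.4% of NP nuclei, 2.05% and 1.84% of LOH, 0.651% and 2.21% of Podo, 2.22% and 6.93% of CNT, 1.01% and 2.18% of Endo and 0.840% and 0.873% of stroma2 nuclei. In both samples together they were 3 of 108 DCT, 2 of 96 IC, 4 of 1181 stroma1 and 1 of 195 PT2 nuclei, and 0 of 1104 PT, 744 PC and 156 immune nuclei. The annotation thus places some nuclei with few open members in NP, and a few with many in 9 of the other clusters named here. Members and clusters come from the same nuclei, so the separation is not a test of the annotation.

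**Figure D4:**
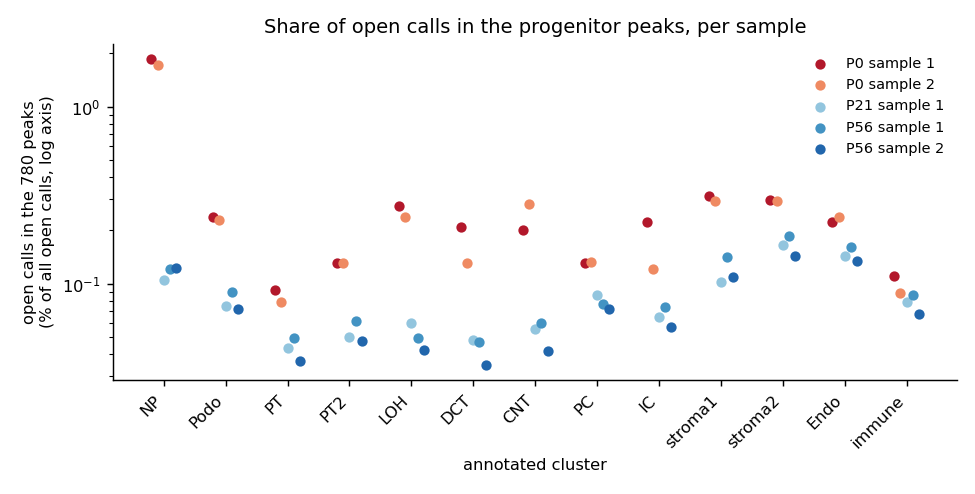
Share of all open calls that fall in the 780 members (y axis, %, log axis) for 13 annotated clusters (x axis) and each of the 5 samples (points, P0 in red and orange, adult in blue). P0 NP lies at 1.85% and 1.73%, every other point at or below 0.312%.

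The share of open calls in members sums this up by sample. In P0 NP it was 1.85% and 1.73%. It was 0.237% and 0.227% in Podo, 0.0923% and 0.0786% in PT and 0.275% and 0.238% in LOH, and the highest values outside NP were in stroma, at 0.312% and 0.291% in stroma1 and 0.297% and 0.294% in stroma2. In the adult NP cluster it was 0.105%, 0.121% and 0.122%, below P0 stroma and at the level of adult stroma1, at 0.102%, 0.141% and 0.109%. Means for NP were 1.79% ± 0.0874 (SD, n = 2) at P0 and 0.116% ± 0.00934 (SD, n = 3) in adult samples. P0 NP chose the members, so no test of this difference was made.

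Nearly all members were closed in the adult NP cluster. Of the 780, 370 had no open call in the 928179 calls of adult NP, 334 had 1 to 3 and 76 had more. One call is 1.08 CPM there, so a member at 0 may lie at up to about 3 calls. At 15 CPM or more in adult NP were 8 members, or 1.03%, against 67.9% of the other NP peaks. Those 8 include peaks near Itpk1 (31.0 CPM at P0 and 31.2 in adult), Dab1 (the lower of its 2 members in NP, 34.2 and 19.4) and Mn1 (19.1 and 18.3), named after their values were seen. Summed over members, the level was 17827 CPM at P0 and 1172 in adult NP, while the other NP peaks summed to 459554 and 439278 CPM. Both sets were chosen by their P0 levels, and a gene start lay within 2.69% of members and 69.2% of the other NP peaks. The contrast between the sets was not matched for position and is a description only. The adult cluster holds 195 nuclei.

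In the differentiated lineages the levels were also compared between stages as a description, since the rule used the P0 values of these lineages. Mean shares of open calls in members were 0.232% ± 0.00733 at P0 and 0.0787% ± 0.00992 in adult Podo, 0.0854% ± 0.00968 and 0.0431% ± 0.00633 in PT, and 0.257% ± 0.0265 and 0.0504% ± 0.00898 in LOH (SD, n = 2 and 3). The adult values lay below the P0 values in all 3, and no test was made. The summed level of the 6 NP start peaks was also lower in adult samples, at 93.9 and 105 against 62.3, 59.0 and 37.1 CPM in Podo and 91.3 and 76.0 against 27.5, 24.7 and 15.1 CPM in LOH, with 0 to 2 of the 6 at 0, and its part in the difference was not tested. At 15 CPM or more in an adult lineage were 2 members. In Podo the Itga8 member had 17.1 and 8.18 CPM at P0, and adult values of 31.1, 25.3 and 37.1. The Dab1 member reached 16.1 CPM in adult LOH.

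The stage contrast in cell types outside the rule can be tested, since the rule used no value of them. Kidneys of the older mice were perfused first, so stage and this handling cannot be told apart. For stroma1, stroma2, Endo, immune, DCT, CNT, PC and IC, sums per sample were compared between 2 P0 and 3 adult samples with edgeR's quasi-likelihood test over all peaks past a filter on low counts (minimum 10, adjusted p under 0.05). Only members with signal there can be tested, 204 of the 780 in any of the 8 cell types. A member that passed the filter through the samples of 1 stage alone was admitted by its high level there. Its values are given as a description, with no fold or p. Counts over all tested members, in the main fit and in the alternatives, do not leave such members out, so they give no support for a direction. Only counts over members past the filter in both stages are read as a comparison, and these were not repeated under the alternatives.

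In stroma2, 139 members were tested, of which 85 were lower in adult samples (26.5% of all 53951 tested peaks) and 14 higher (23.7% of all). Of these 139, 69 passed the filter through P0 alone and 14 through adult samples alone. Among the 54 members past it in both stages, 21 were lower, against 13% of all such peaks, and 5 higher, against 19.3%. Of those past it in both stages, and named after their values were seen, the intronic member of Phldb2 had 20.3 and 18.99 CPM at P0 and 3.41, 6.38 and 6.21 in adult samples (log2 fold change -1.79, SE 0.296, edgeR adjusted p = 2.64e-05), and an exonic member of Mycn had 25.8 and 23.5 and then 6.83, 13.3 and 6.90 (-1.36, SE 0.259, edgeR adjusted p = 0.000131). The 3 members named by the rule as lower all passed through P0 alone. Of these, the intronic member of Erc2, a synaptic gene, had 38.2 and 42.5 CPM at P0 and 5.69, 3.72 and 2.07 in the adult samples. The member 185 kb from Gdnf had 23.3 and 20.2 CPM at P0 and 0, 0.532 and 0.690 in adult samples, and the one distal to Bdh1 had 24.6 and 26.3 and then 1.14, 3.72 and 0 CPM. The groups did not overlap at these 3 sites, which their admission through P0 alone favoured, so this gives no support for a fall. Leaving out the P21 sample, P56 sample 1 or P56 sample 2 gave 152 of 323, 141 of 318 and 137 of 326 members lower, against 22.6%, 24.6% and 20.1% of all peaks. Leaving out P0 sample 1 or 2 gave 4 of 144 and 4 of 147 higher, against 7.63% and 7.46% of all. DESeq2 called 65 of the 139 lower and 6 higher, against 18.5% and 15.4% of all. Members admitted through 1 stage alone were not counted apart in these alternatives. The counts therefore say nothing of the 54 past the filter in both stages.

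Other members were higher in adult stroma2. The intronic member of the ion channel gene Asic2, past the filter in both stages, had 11.7 and 12.8 CPM at P0 and 23.9, 39.9 and 21.4 in adult samples (log2 fold change 1.27, SE 0.229, edgeR adjusted p = 6.90e-05). Those of Cited2 and Snx9 passed through adult samples alone. The member 356 kb from Cited2, a transcriptional coregulator, had 6.22 and 5.22 CPM at P0 and 25.04, 41.5 and 31.1 in the adult samples. In Endo, also past the filter through adult samples alone, it had 6.56 and 3.25 CPM and then 20.6, 33.7 and 15.0. Distal to Snx9, which acts in endocytosis, the level was 1.48 and 1.55 CPM at P0 and 6.83, 13.3 and 14.5 in adult samples. At each of these sites the lowest adult value lay above the highest P0 value. For Cited2 and Snx9 the filter favoured this, so it gives no support for a rise there.

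In stroma1, 32 members were tested, of which 30 were lower in adult samples (20.8% of all 15376 peaks) and 0 higher (17% of all). Passing the filter through P0 alone were 30 of the 32, so the count gives no support for a direction, and those named by the rule are of this kind. Id2 encodes an inhibitor of bHLH factors, and its distal member had 56.7 and 50.9 CPM at P0 and 0, 3.36 and 1.86 in adult samples. The Itga8 member had 77.1 and 64.3 CPM and then 6.80, 10.1 and 13.04, and the Erc2 member 41.6 and 38.2 and then 0, 6.72 and 0. The 1 member past the filter in both stages was that of Wasf2, with 52.0 and 54.4 CPM at P0 and 27.2, 43.7 and 22.4 in adult samples (log2 fold change -0.98, SE 0.236, edgeR adjusted p = 0.000331). Adult stroma1 holds 298 nuclei, where 1 open call is 0.886 CPM, so few open calls underlie these adult values. The spread between samples fitted in stroma1 was very small (common dispersion 9.77e-05), so this SE and p may be too small. By an unadjusted p under 0.05, 30 members were lower and 0 higher, where 45.0% of all peaks passed in either direction, and DESeq2 called 29 and 0, against 17.9% and 12.6% of all peaks. Leaving out the P21 sample, P56 sample 1 or P56 sample 2 gave 75 of 133, 88 of 129 and 63 of 130 lower, against 20.1%, 23.9% and 17.4% of all, and 5, 3 and 4 higher, against 12.2%, 16.3% and 8.49%. Members admitted through 1 stage alone were not counted apart in these alternatives, so they give no support for a direction either. Leaving out P0 sample 1 gave 19 of 22 lower, against 11.7% of all.

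At the Itga8 site the stroma clusters had different adult levels. The Itga8 member had 69.3 and 67.4 CPM at P0 and 53.5, 69.2 and 75.3 in adult stroma2, with a log2 fold change of -0.03 (SE 0.163), and -0.01 (SE 0.204) in Endo, neither called. Its adult values in stroma1 lay far below these, but it passed the filter there through P0 alone, so the difference between the clusters is given with no test. The name of adult stroma1 has mixed marker backing. The Col3a1, Pdgfrb and Col1a1 starts were open in 1.68%, 7.05% and 9.06% of its nuclei, against 5.90%, 9.22% and 12.6% in adult stroma2. Foxd1 was higher in stroma1, at 8.05% against 6.36%. The starts of the tubule genes Slc12a3 and Lrp2 were open in 11.4% and 8.39%, against 4.15% and 4.06%. The part of tubule DNA in stroma1 was not tested. The Gdnf member, admitted through P0 alone in both, had 57.5 and 55.3 CPM at P0 and 10.2, 20.2 and 14.9 in adult stroma1. The 1 member past the filter in both stages of both clusters was that of Wasf2, with 45.5 and 49.5 CPM at P0 and 47.8, 54.3 and 59.4 in adult stroma2 (log2 fold change 0.19, SE 0.168, not called). Its change in stroma1 was below that in stroma2 by a log2 difference of -1.25 (SE 0.228, edgeR adjusted p = 0.000137), in a fit of both clusters with the sample as a block that was added after seeing the data. That fit called 4367 of 66107 peaks in this direction and 693 in the other. The p also rests on the few open calls of adult stroma1.

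**Figure D5:**
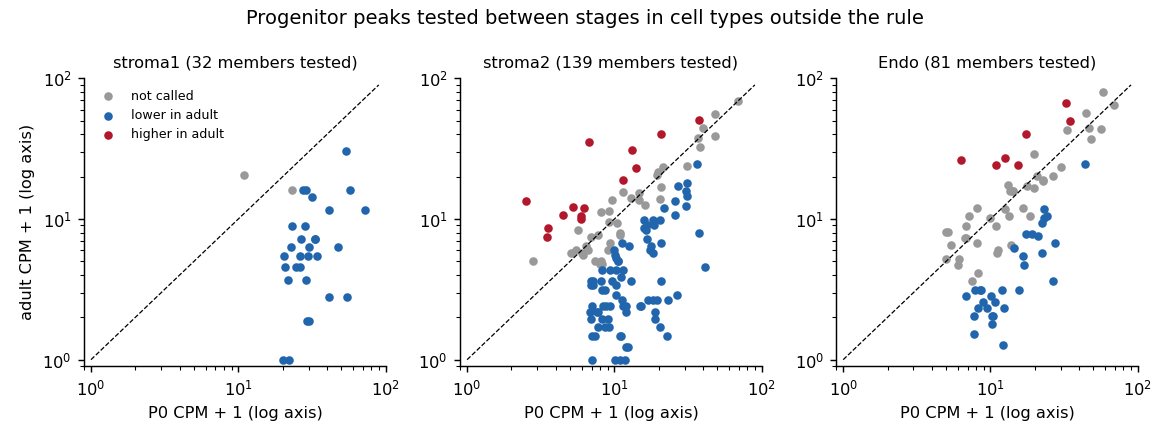
P0 (x axis) against adult (y axis) level of the members tested in stroma1, stroma2 and Endo, as CPM + 1 on log axes, each point 1 member, coloured by its edgeR call. Points below the dashed line of equality are lower in adult samples. In stroma1, 30 of 32 members were called lower and 0 higher, against 20.8% and 17% of all tested peaks. In stroma2, 85 of 139 were called lower and 14 higher, against 26.5% and 23.7%. In Endo, 32 of 81 were called lower and 7 higher, against 16.6% and 14.8%. Members past the filter through 1 stage alone are included.

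In Endo, 81 members were tested, with 32 lower (16.6% of all 45215 peaks) and 7 higher (14.8% of all). Among the 41 past the filter in both stages, 10 were lower, against 6.87% of such peaks, and 6 higher, against 15.3%. The member in Shank2, past it in both stages, had 25.8 and 27.5 CPM at P0 and 7.93, 6.31 and 3.93 in adult samples (log2 fold change -2.12, SE 0.323, edgeR adjusted p = 3.76e-05). Members admitted through P0 alone were that of Nebl, an actin-binding protein gene, with 26.2 and 24.6 CPM at P0 and 1.59, 3.68 and 1.57 in adult samples, and the distal one near Mrpl23, with 10.3 and 12.3 and then 0, 0.526 and 0. In the other direction, the promoter member of Meox1 rose from 30.7 and 33.3 CPM to 47.6, 66.8 and 72.4 (1.08, SE 0.219, edgeR adjusted p = 0.000659), and the distal member of Rhob, a small GTPase, from 18.5 and 13.4 to 41.3, 38.4 and 40.1. The Meox1 member was thus open in P0 progenitors and endothelium, and more so in adult endothelium. Leaving out P0 sample 1 gave 11 of 85 members lower and 2 higher, against 3.61% and 2.46% of all peaks, and leaving out P0 sample 2 gave 16 of 86 and 3, against 5.81% and 2.85%, so fewer calls were made over all peaks too. Leaving out P56 sample 2 gave 11 of 98 higher, against 13.6% of all. DESeq2 called 15 of the 81 lower and 3 higher, against 4.89% and 5.85% of all.

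Epithelial cell types outside the rule had few members to test. In PC, 29 were tested, with 12 lower (16.8% of all 40576 peaks) and 2 higher (12.7% of all), and 6 passed the filter in both stages, of which 1 was lower, against 7.21% of such peaks, and 0 higher, against 10.4%. With no filter on low counts, 0 of 763 members and 0 of all peaks were called in either direction, so every call in PC rests on the filter. That one is the Npvf site printed above, with 17.5 and 21.4 CPM at P0 and 16.6, 13.99 and 6.33 in adult samples (log2 fold change -0.91, SE 0.342, edgeR adjusted p = 0.0448), named after its values were seen. The members named by the rule all passed the filter through 1 stage alone. The member distal to Stxbp5 had 7.47 and 7.501 CPM at P0 and no open call in the adult samples, the one in Rgs8 had 12.3 and 8.63 and then 0, 2.33 and 1.41, and the one distal to Lurap1l 18.7 and 18.4 and then 12.9, 3.50 and 3.52. Both members called higher in PC passed through adult samples alone, that of Col26a1 with 5.23 and 6.0 CPM at P0 and then 9.20, 26.8 and 12.7, and that of Wdr48 with 0 and 0.750 and then 7.36, 13.99 and 2.11. Leaving out P0 sample 1 or 2 gave 3 of 28 and 2 of 29 members lower in PC, against 4.09% and 4.602% of all peaks, and 0 higher, against 2.11% and 2.21%. Leaving out P56 sample 1 gave 20 of 44 lower, against 17.8% of all, leaving out P56 sample 2 gave 8 of 33 lower, against 9.96%, and leaving out the P21 sample gave 4 of 47 higher, against 12.3%. DESeq2 called 7 of the 29 lower, against 8.95% of all.

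In CNT, 4 of 5 members were lower (12.2% of all 24739 peaks) and 0 higher (10.4% of all), with 4 lower and 0 higher at an unadjusted p under 0.05, which 33.9% of all peaks had in either direction, and by DESeq2, which called 6.26% of all peaks lower and 4.37% higher. The 4 were all admitted through P0 alone, and the 1 member past the filter in both stages was not called, so no support for a direction comes from this count. Those named by the rule were 2 distal members near Npvf, the second of which is the site printed above, from 18.2 and 13.9 CPM to 0 in all adult samples and from 35.3 and 25.2 to 5.44, 9.05 and 2.42, and 1 distal to Socs3, from 13.7 and 12.6 to 0, 0 and 0.605.

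No member could be tested in DCT, where 1.13% of all 12247 peaks were lower and 2.6% higher in adult samples. In immune cells 0 of 2 members were called lower (0.0497% of all 6033 peaks) or higher (0.0995% of all), by edgeR and by DESeq2, and none had an unadjusted p under 0.05, against 8.92% of all. In IC 0 of 2 were called lower (0% of all 14852 peaks) or higher (0.108% of all), with 1 lower and 0 higher at an unadjusted p under 0.05, which 10.6% of all peaks had in either direction, and 0 by DESeq2. Leaving out P56 sample 1 gave 1 of 1 lower in IC, against 2.28% of all. The filter stood at 45.5 CPM in immune cells, 24.6 in DCT and 19.8 in IC, above most members.

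The level of progenitor markers in stroma1, stroma2, Endo, PC and CNT is given beside these results. The summed level of the 6 NP start peaks was 34.8 and 36.0 CPM in P0 stroma1 and 37.4, 10.1 and 26.1 in adult, 41.03 and 41.4 and then 35.3, 23.9 and 20.7 in stroma2, 37.0 and 37.6 and then 20.6, 14.2 and 8.66 in Endo, 52.3 and 52.1 and then 33.1, 20.98 and 13.4 in PC, and 52.4 and 44.1 and then 13.6, 22.1 and 13.9 in CNT. In P0 NP it was 154 and 158 CPM. The adult values lay below both P0 values in stroma2, Endo, PC and CNT and overlapped them in stroma1. Up to 4 of the 6 were at 0 in an adult sample of stroma1 and CNT. The part of progenitor DNA or mixed barcodes in the stage differences was not tested.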

How the data were processed

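The authors aligned snATAC-seq reads with Cell Ranger ATAC 1.1.0 and called peaks with MACS2, and deposited one matrix of counts of peaks by nuclei for 5 libraries, with an annotation of clusters, on mm10. Peaks were called by cell type on nuclei pooled over samples and merged, and the authors binarized the matrix. Its 166031996 entries of 1 over 28316 nuclei were taken as open calls, and 89197 stored zeros as closed. Open calls were summed per sample and cluster. CPM divides by all open calls of the cluster, so a change in many peaks shifts the rest. The number of nuclei per cluster limits the precision, and 0 counts of nuclei allow a share of up to 3 nuclei, for counting error only.

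Members, gene lists and motif words were chosen with earlier results of these data known. Genes are the nearest protein-coding start in GENCODE M21. Named were the 15 members highest in NP, the highest member of each progenitor, posterior Hox and early nephron gene, the 5 loci with most members, 3 peaks on each side of the thresholds, and the 3 members of smallest p per cell type and direction. Stage was tested with edgeR 4.0.16 in R 4.3.3 (TMM, filterByExpr with a minimum count of 10, sums of at least 20 nuclei, Benjamini-Hochberg over all peaks past the filter), and the test was tried on simulated data with 200 changed peaks. Alternatives were DESeq2 1.42.0, other thresholds, filters and scaling, each sample left out, P56 alone as adult, and the replicate number as a block. Summing PT and PT2, and the fit of both stroma clusters, were added after seeing the data. Sequences are from the GRCm38 reference, in which 300693 peaks lie on the chromosomes held. RNA libraries of the series were not analysed here.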

Additional observations from a re-analysis of the deposited data

Results flagged for a closer look

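Picked for opposite calls with no overlap of P0 and adult samples in either cluster, 3 distal members were lower in adult stroma1 and higher in adult stroma2. How many of all peaks meet this was not counted. In stroma1 all 3 passed the filter through P0 alone, so the fall there was favoured by the filter, and no test of the difference between the clusters is given. The member near Dhrs3, a retinaldehyde reductase gene, had 28.5 and 26.7 CPM in P0 stroma1 and 3.398, 3.36 and 1.86 in adult stroma1, but 13.6 and 12.3 and then 23.9, 20.7 and 22.8 in stroma2. Over the adult samples together it had 2.66 and 22.1 CPM in stroma1 and stroma2. The member near Gm10295 had 28.8 and 25.8 and then 6.80, 16.8 and 3.73 CPM in stroma1, and 37.0 and 36.3 and then 48.9, 48.9 and 50.4 in stroma2, with 7.98 and 49.4 CPM over the adult samples together. The member near Gm11096 had 24.3 and 19.9 and then 3.398, 10.1 and 9.32 CPM in stroma1, and 11.7 and 9.11 and then 15.9, 17.6 and 20.02 in stroma2, with 7.98 and 18.1 CPM over the adult samples together. The adult stroma1 sums come from 90 to 107 nuclei a sample, and the markers of that cluster were mixed, as given above.

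The distal member of Wasf2 passed the filter in both stages of both stroma clusters. Its change between stages in stroma1 was below that in stroma2 by -1.25 on the log2 scale (edgeR adjusted p = 0.000137). The fall in stroma1 was called and the change in stroma2 was not. Among all 66107 peaks of that fit, 4367 were called in this direction and 693 in the other, and the p rests on few open calls in adult stroma1.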

How the results depend on the processing

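The number of members followed the thresholds, with 1513 at a minimum of 10 CPM, 405 at 20 CPM and 1218 at a ratio of 3, and was 793 to 812 in single P0 samples. Summing PT and PT2, chosen after seeing the data, gave 778. With promoters of 2 kb, 86.4% of members were distal or intronic. By the nearest start of any gene, members near progenitor, early nephron and podocyte genes numbered 8, 2 and 1. Searched over whole peaks, of which members are wider (median 770 against 414 bp), words were more frequent throughout, with the SIX-family word in 43.2% of members and 22.2% of all peaks. Of the 6 words less frequent in members by the central window, 4 were then more frequent than in all peaks: SOX at 7.82% against 6.33%, TEAD at 13.6% against 9.18%, CTCF at 11.7% against 8.26% and the E-box at 38.7% against 28.1%.

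With no filter on low counts, members lower in adult numbered 134 of 779 in stroma1 (10.1% of all peaks), 227 of 780 in stroma2 (13.5%), 76 of 780 in Endo (4.38%), 1 of 706 in DCT (0.0899%), 74 of 764 in CNT (1.81%) and 0 of 763 in PC (0%), and those higher 1 in stroma1 (2.01% of all peaks), 6 in stroma2 (3.76%), 3 in Endo (1.28%) and 0 in PC (0%). DESeq2 called 15 of 81 lower in Endo (4.89% of all peaks) and 7 of 29 in PC (8.95%). It called 6 of 139 higher in stroma2 (15.4%) and 3 of 81 in Endo (5.85%). P0 against P56 is the same fit as leaving out the P21 sample. It gave 75 of 133 lower and 5 higher in stroma1 (20.1% and 12.2% of all peaks). In stroma2 152 of 323 were lower (22.6%), and in PC 4 of 47 were higher (12.3%). Leaving out 1 sample gave 19 to 88 lower and 0 to 5 higher in stroma1, 59 to 152 and 4 to 18 in stroma2, 11 to 38 and 2 to 11 in Endo, 2 to 20 and 0 to 4 in PC, 4 to 5 lower in CNT and 0 to 1 in IC. Over all these alternatives the share of all peaks called lower also moved, from 10.1% to 23.9% in stroma1, 13.2% to 24.6% in stroma2, 3.61% to 18.2% in Endo and 0% to 17.8% in PC. Where a sample is left out, the filter also admits other peaks, and the cause of other shifts was not tested.

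Same-numbered P0 and P56 samples had correlations of deviations of -0.0239 to 0.153, over only 2 pairs, which cannot settle whether the numbers pair the samples. With the replicate block and P0 against P56, 64 of 133 members were lower and 5 higher in stroma1 (15.6% and 9.802% of all peaks), 135 of 323 lower in stroma2 (20% of all), 19 of 47 lower and 4 higher in PC (14.7% and 11.1%) and 1 of 3 lower in IC (0.227%). Of the main values recomputed with all samples or by another method, 82 stayed within the spread or within 1.5 times and 31 moved. On leaving out a sample, 58 stayed and 24 moved. Those that stayed include counts of 0 against 0, as in DCT, where no member could be tested. The totals therefore say little about stability.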

Other observations

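The adult cluster named NP_LOH, which holds 1 nucleus at P0, had a mean share of open calls in members of 0.122% ± 0.0121 (SD, n = 3), close to the adult NP cluster at 0.116% ± 0.00934 (SD, n = 3). The member distal to Wasf2 had 16.2 CPM in adult NP and 27.2, 43.7 and 22.4 CPM in stroma1 of the adult samples. The intronic member of Lmx1b, a podocyte transcription factor gene, had 39.1 CPM in P0 NP, 7.68 in P0 Podo and 10.99 in adult Podo.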
